A study of Mus musculus with 12 samples.

Results

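The genes of fibroblast growth factor (FGF) signalling were examined in ventral spinal cords of E12.5 mouse embryos. The set was defined by gene symbol, with earlier results of these data known. It holds every *Fgf* gene with a number, the receptors *Fgfr1* to *Fgfr4*, the receptor-like gene *Fgfrl1*, and the feedback inhibitors *Spry1* to *Spry4*, *Spred1* to *Spred3* and *Dusp6*. This rule matched 35 mouse genes, of which 34 had values among the 45777 genes of the tables, and *Spry3* was not analysed here. Bulk RNA-seq was available for 12 libraries, with 3 libraries from *Isl2* +/- embryos (Het) and 3 from *Isl2* -/- embryos (KO) for the brachial and again for the lumbar cord. The KO allele is a germline null in which a neomycin cassette replaces several exons, and the controls carry the same allele on one chromosome, so no wild-type embryo is included. According to the study, the cord was opened and its ventral part was trimmed around the motor neuron reporter *Hb9::GFP*. No sorting of cells is described, so motor neurons, progenitors and glial, vascular and blood cells are taken to be read together. In such bulk tissue, fewer cells of a type and less RNA per cell cannot be told apart.

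FGF ligands are secreted proteins that bind FGF receptors, which are receptor tyrosine kinases, together with heparan sulfate. The receptors signal through Ras and the MAP kinases Erk1 and Erk2, and this pathway switches on its own inhibitors, the Sprouty and Spred proteins and the phosphatase Dusp6, as well as the ETS factors *Etv4* and *Etv5*. In the spinal cord, FGF signals from the caudal end of the embryo help to set the *Hox* code along the rostrocaudal axis, and FGFs act on progenitors and on glial precursors. A further group, the FGF homologous factors *Fgf11* to *Fgf14*, is not secreted and binds voltage-gated sodium channels in neurons.

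The promoters of *Fgf9*, *Fgfrl1* and *Dusp6* are shown here because these 3 genes had the most stable differences between the levels of the cord. Each window runs from 250 bases before to 50 bases after a transcript start (RefSeq, GRCm38.p6, plus strand, 5′ to 3′), and lies at chr14:58072436-58072735 for *Fgf9*, at chr5:108693979-108694278 for *Fgfrl1* and at chr10:99262981-99263280 for *Dusp6*. The starts used for *Fgfrl1* and *Dusp6* are the first base of the gene, while that of *Fgf9* lies 2015 bases inside the RefSeq span of the gene, so other *Fgf9* starts are not covered. Capitals mark matches to CCGGAAG, a sequence bound by ETS factors, which was searched on both strands and with no other motif.
Fgf9: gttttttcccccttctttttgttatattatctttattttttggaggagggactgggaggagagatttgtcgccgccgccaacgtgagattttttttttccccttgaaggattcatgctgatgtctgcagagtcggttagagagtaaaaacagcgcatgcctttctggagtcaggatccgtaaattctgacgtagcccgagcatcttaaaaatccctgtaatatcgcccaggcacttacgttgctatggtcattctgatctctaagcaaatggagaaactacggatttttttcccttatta
Fgfrl1: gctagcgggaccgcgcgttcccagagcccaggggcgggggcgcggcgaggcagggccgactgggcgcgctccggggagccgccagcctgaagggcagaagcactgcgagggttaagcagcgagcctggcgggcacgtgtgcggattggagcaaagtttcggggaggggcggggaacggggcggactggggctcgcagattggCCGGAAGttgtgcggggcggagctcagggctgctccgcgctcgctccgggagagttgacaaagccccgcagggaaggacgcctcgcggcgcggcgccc
Dusp6: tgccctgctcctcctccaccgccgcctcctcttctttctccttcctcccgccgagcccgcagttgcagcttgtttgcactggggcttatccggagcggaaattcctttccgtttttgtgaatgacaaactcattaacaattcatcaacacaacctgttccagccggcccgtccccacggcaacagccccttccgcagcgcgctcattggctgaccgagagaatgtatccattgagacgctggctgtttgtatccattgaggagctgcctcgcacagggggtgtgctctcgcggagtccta
The only match in these windows was in *Fgfrl1*, where it began 48 bases before the start. Among the 33 windows of 26 members, this was also the only match, while 8.86% of the 32851 mouse promoter windows held one. Windows of *Fgf1*, *Fgf8*, *Fgf15*, *Fgf16*, *Fgf17*, *Fgf20*, *Fgfr1*, *Spry3* and *Spry4* were not used here. GC content was 42.7% for *Fgf9*, 73.7% for *Fgfrl1* and 57.3% for *Dusp6*, beside a median of 52.7% over all windows.

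The aligned bases behind a library ranged from 4.48 to 6.64 Gb, and the lowest value was that of Brachial KO replicate 3. Values are given as TPM (a per-length measure of transcript abundance) rescaled between libraries, because 5 small RNAs took 23.7% to 38.2% of the TPM of a library. *Isl2*, the targeted gene, was at 8.29 to 9.68 TPM in brachial Het and 4.46 to 7.25 TPM in brachial KO libraries, and at 8.40 to 10.3 TPM in lumbar Het and 6.51 to 8.21 TPM in lumbar KO libraries. The 10 motor neuron markers were all detected and summed to 478 to 542 TPM in brachial and 217 to 359 TPM in lumbar libraries. This lower sum was that of *Prph* and *Slc5a7*, the only markers of the list called between levels, with log2 fold changes of −2.62 and −1.10 (limma), while 6 of the 10 were above 0 and the median of the list was 0.12. The muscle marker *Myod1* and the sensory neuron marker *Scn10a* were listed at 0 in every library. The 8 muscle markers together summed to 0.888 to 2.35 TPM. The 7 sensory neuron markers, in contrast, summed to 310 to 393 TPM in brachial and 261 to 339 TPM in lumbar libraries. The study's methods give 3 embryos of each genotype for these libraries. Y-linked transcripts placed 1 female among the brachial Het and 2 among the lumbar Het libraries, so that these 2 groups cannot come from the same 3 embryos throughout. Among brachial and lumbar libraries with the same genotype and number, 3 of 6 pairs were of opposite sex.

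The FGF genes of the ventral cord covered a wide range of levels. A mean of at least 0.5 TPM over the 12 libraries, the filter used for testing, was reached by 18 of the 34 members. A further 11 were above 0 in some library but below this mean, with no library above 0.873 TPM. Another 5 members, *Fgf4*, *Fgf6*, *Fgf16*, *Fgf20* and *Fgf21*, were listed at 0 in every library.

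**Figure D1:**
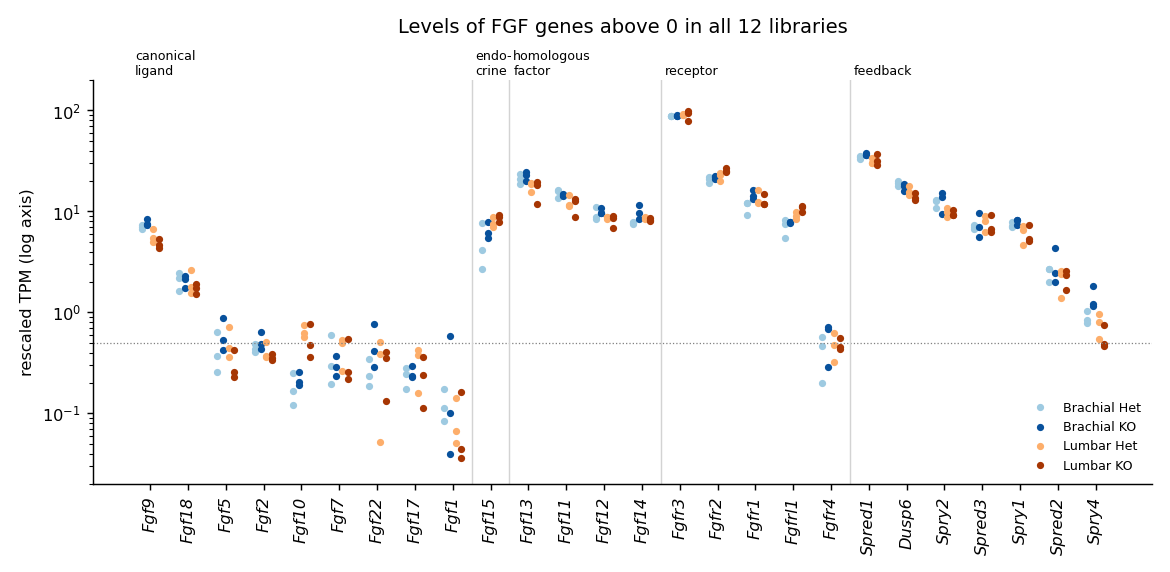
Rescaled TPM (log axis) of the 26 FGF genes above 0 in all 12 libraries, by class, with 1 point per library and colours for the 4 groups. The dotted line is the filter at a mean of 0.5 TPM, and *Fgfr3* stands above all other members at 79.4 to 99.4 TPM.

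Of the 15 canonical ligands, which act locally, *Fgf9* and *Fgf18* passed the filter. *Fgf9*, a ligand secreted by epithelia and neurons, was the highest at 6.31 ± 1.30 TPM (SD, n = 12) and made up 48.2% to 67.2% of the summed ligand TPM of a library. *Fgf18*, a ligand best known from skeletal growth, was at 1.97 ± 0.378 TPM (SD, n = 12) and below *Fgf9* in every library without overlap of their ranges. Next in order were *Fgf5*, *Fgf2*, *Fgf10*, *Fgf7*, *Fgf22*, *Fgf17*, *Fgf3*, *Fgf1* and *Fgf8*, with means from 0.460 down to 0.0312 TPM, and each overlapped its neighbour in this order. *Fgf3* was listed at 0 in 4 libraries and *Fgf8*, which marks signalling centres such as the isthmus and the limb ridge, in 8. Some reads of *Fgf1*, *Fgf2*, *Fgf7*, *Fgf12* to *Fgf15*, *Fgf17*, *Fgfr1*, *Spred3* and *Dusp6* may belong to genes that overlap them, since the strand setting of the counting is not given in the sources used here.

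Of the 3 endocrine ligands, which travel in the blood with the help of Klotho proteins, *Fgf15* alone passed the filter. *Fgf15*, the mouse counterpart of human FGF19 and a gene of neural progenitors in the embryo, was at 6.95 ± 1.996 TPM (SD, n = 12) and close to *Fgf9* in level. *Fgf23*, a hormone of phosphate balance, averaged 0.0552 TPM and was at 0 in 5 libraries.

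All 4 homologous factors passed the filter. *Fgf13* was the highest at 19.5 ± 3.42 TPM, followed by *Fgf11* at 13.5 ± 2.11, *Fgf12* at 9.09 ± 1.11 and *Fgf14* at 8.63 ± 1.05 TPM (SD, n = 12). Each of these ranges overlapped that of its neighbour, although *Fgf11* exceeded *Fgf12* in 12 of 12 libraries. The summed TPM of the 4 factors, 39.7 to 60.3, exceeded that of all secreted ligands. The depth behind *Fgf13* is uncertain, since its mean coverage was 1.01 to 1.88 reads per base at 11.9 to 24.4 TPM.

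Among the receptors the order was *Fgfr3*, *Fgfr2*, *Fgfr1* and *Fgfr4*, and no 2 neighbours in it overlapped. *Fgfr3*, a receptor of ventricular progenitors and astroglial precursors, was at 89.9 ± 4.64 TPM (SD, n = 12), above 97.0% of all genes in the tables. It made up 66.7% to 75.7% of the summed TPM of the 4 receptors. *Fgfr3* was also among the steadiest genes, with a coefficient of variation of 5.16% over the libraries beside a median of 14.9% over the genes tested, and the 6 brachial libraries lay between 88.6 and 89.3 TPM. *Fgfr2* averaged 22.7 ± 2.32 TPM and *Fgfr1* 13.1 ± 2.07 TPM, while *Fgfr4*, at 0.482 ± 0.159 TPM, was just below the filter (SD, n = 12). *Fgfrl1*, which binds FGFs but lacks the intracellular kinase, was at 8.70 ± 1.65 TPM (SD, n = 12).

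All 7 feedback genes with values passed the filter. *Spred1*, a Ras inhibitor that recruits neurofibromin, was the highest at 33.9 ± 2.93 TPM, and *Dusp6*, the phosphatase that inactivates Erk, followed at 16.6 ± 2.28 TPM (SD, n = 12). *Spry2*, *Spred3* and *Spry1* averaged 11.1, 7.40 and 6.83 TPM, with overlap between neighbours. *Spred2* averaged 2.42 and *Spry4* 0.905 TPM. Sprouty genes encode inhibitors of the path from receptor to Ras, and among them *Spry2* was above *Spry1* on average and both were several-fold above *Spry4*.

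Lumbar cords differed from brachial cords in 5 of the 18 members tested at an adjusted p under 0.05 (limma, genotype as a covariate, n = 6 against 6). This is 27.8% of the members, beside 18.5% of all 16698 genes tested. *Fgfrl1* was higher at the lumbar level, where 8.91% of all genes were, and *Fgf9*, *Dusp6*, *Spry1* and *Spry2* were lower, where 9.62% of all genes were. The lower calls are thus 22.2% of the members. With the TPM as deposited, 0 members were higher and 7 lower. This scaling moved all genes, with a median log2 fold change of −0.13 and 73.6% of the genes tested below 0. At an unadjusted p under 0.05 there were 12 members (66.7%), beside 32.2% of all genes. The median log2 fold change of the 18 members was −0.18, beside 0.01 over all genes tested. Ranges of the 2 levels did not overlap for 2 members, *Fgfrl1* and *Fgf9*, while 8.31% of all genes had no overlap (3.65% higher and 4.67% lower).

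**Figure D2:**
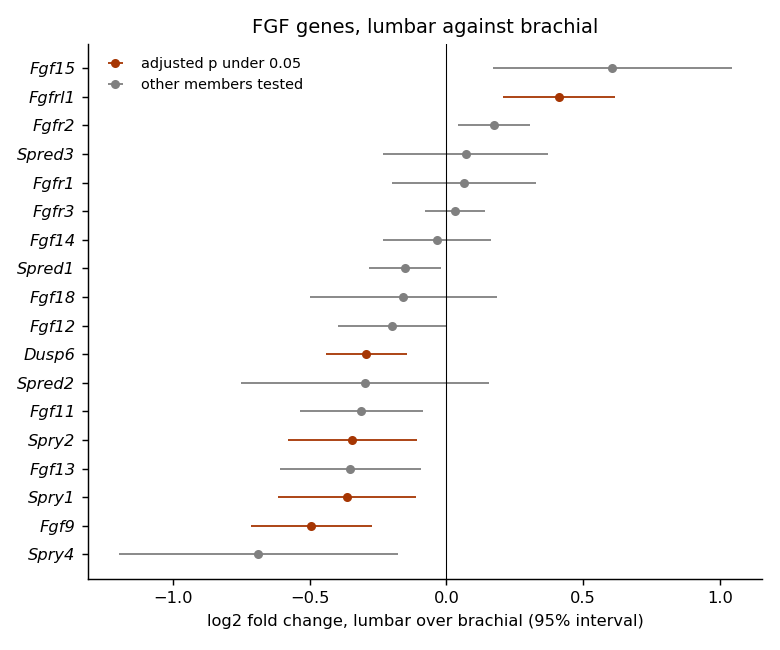
Log2 fold change of lumbar over brachial libraries for the 18 FGF genes tested, with 95% intervals (limma, 6 against 6 libraries). The 5 coloured genes passed an adjusted p of 0.05, with *Fgf9* at −0.49 and *Fgfrl1* at 0.41, and the intervals of 6 members hold 0.

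*Fgf9* (gene 14180, chromosome 14 of mm10, 58070671 to 58112854, plus strand) ranged from 6.71 to 8.39 TPM with a median of 7.29 in brachial libraries, and from 4.34 to 6.66 TPM with a median of 5.20 in lumbar libraries. Every lumbar library was thus below every brachial one, though Lumbar Het replicate 1, at 6.66 TPM, came close to the lowest brachial library. The log2 fold change was −0.49 (SE 0.10, adjusted p = 0.00579, limma). It was −0.30 in Het and −0.69 in KO libraries taken alone, with adjusted p of 0.246 and 0.0517 (limma, 3 against 3).

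*Fgfrl1* (gene 116701, chromosome 5 of mm10, 108694229 to 108706950, plus strand) went the other way, from 5.52 to 8.19 TPM with a median of 7.80 in brachial libraries and from 8.38 to 11.4 TPM with a median of 9.90 in lumbar libraries. The groups did not overlap, and Brachial Het replicate 3 was the lowest of all. Its log2 fold change was 0.41 (SE 0.09, adjusted p = 0.00993, limma), and it was 0.37 in Het and 0.45 in KO libraries alone. With the TPM as deposited, which also lowered the median of all genes by 0.14 on the log2 scale, *Fgfrl1* kept its direction but lost the call.

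*Dusp6* (gene 67603, chromosome 10 of mm10, 99263231 to 99267489, plus strand) ranged from 15.9 to 20.01 TPM with a median of 18.4 in brachial libraries and from 13.0 to 17.7 TPM with a median of 14.8 in lumbar libraries. The groups overlapped through Brachial KO replicate 2 at 15.9 TPM and Lumbar Het replicate 3 at 17.7 TPM. Its log2 fold change was −0.29 (SE 0.07, adjusted p = 0.0107, limma), and the reads of an overlapping predicted gene cannot be told apart from its own. *Fgf9*, *Fgfrl1* and *Dusp6* were each called whichever library was left out.

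*Spry2* had a brachial range of 9.36 to 15.2 TPM with a median of 12.9 and a lumbar range of 8.90 to 10.7 TPM with a median of 9.61. *Spry1* had a brachial range of 7.04 to 8.23 TPM with a median of 7.66 and a lumbar range of 4.62 to 7.31 TPM with a median of 5.93. Log2 fold changes were −0.34 (SE 0.11, adjusted p = 0.0436, limma) for *Spry2* and −0.36 (SE 0.12, adjusted p = 0.0469, limma) for *Spry1*. For both genes the 2 levels overlapped, and the calls were close to the threshold. The *Spry1* call held only without Lumbar Het replicate 1 or Lumbar KO replicate 2, and the *Spry2* call only without Brachial Het replicate 1, Brachial KO replicate 3 or Lumbar Het replicate 2, and each was lost, at adjusted p between 0.0547 and 0.104, without any other library (limma).

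**Figure D3:**
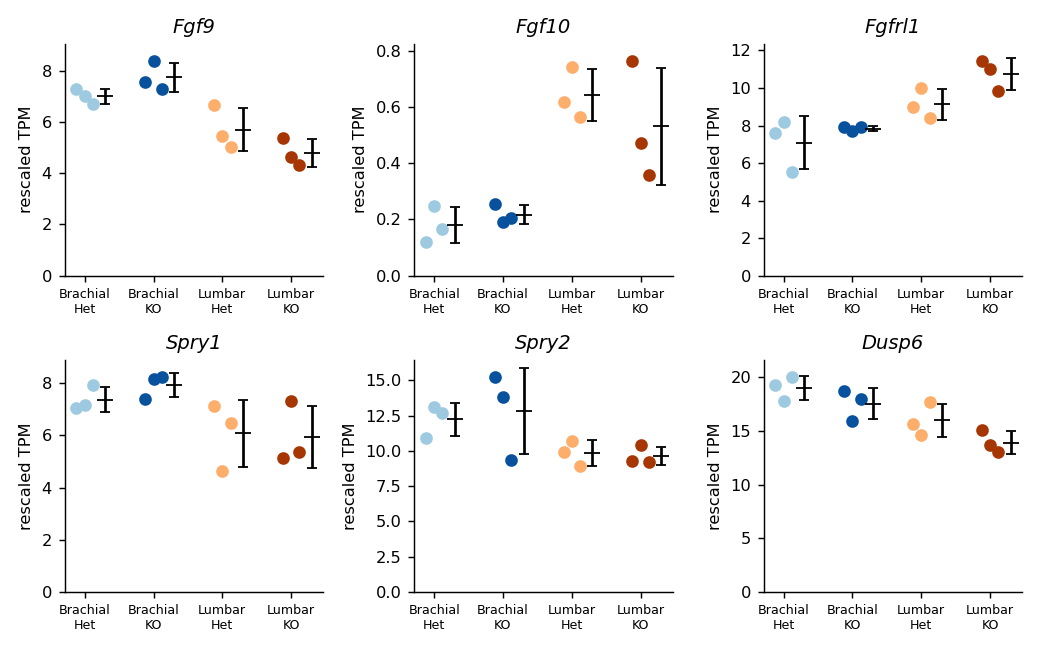
Rescaled TPM of *Fgf9*, *Fgf10*, *Fgfrl1*, *Spry1*, *Spry2* and *Dusp6* in each library (points), with mean and SD of each group (bars, n = 3) and axes that start at 0. Lumbar libraries are below all brachial libraries for *Fgf9* and above all of them for *Fgfrl1* and *Fgf10*, and overlap with them for the other 3 genes.

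A further 5 members had adjusted p between 0.0536 and 0.0633 (limma) and were not called. These were *Fgf11* (log2 fold change −0.31), *Fgf13* (−0.35), *Spry4* (−0.69), *Fgf15* (0.61) and *Fgfr2* (0.17). *Fgf15* was between 7.01 and 9.25 TPM in lumbar and between 2.72 and 7.87 TPM in brachial libraries. Its 2 highest brachial values, 7.87 TPM in KO replicate 1 and 7.73 TPM in Het replicate 1, came from the brachial libraries with the most RNA of 7 dorsal cord markers, 88.5 and 76.4 TPM in sum beside 35.5 to 42.4 TPM in the other 4. Lumbar libraries did not follow this order, since *Fgf15* was at 8.89 TPM in Het replicate 3 and at 8.84 TPM in KO replicate 3, which had the lowest and the highest lumbar dorsal sums, 34.8 and 91.4 TPM. The level difference of *Fgf15* had an adjusted p of 0.0424 without Brachial KO replicate 1 and of 0.0113 without Brachial Het replicate 1 (limma), and the part of dorsal tissue in its level was not tested.

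*Fgf10*, a ligand known for limb and lung outgrowth, was below the filter but separated the levels. In the study's re-analysis of published single-cell data, it was among the genes most enriched in the *Etv4* cluster of lumbar limb motor neurons. It ranged from 0.121 to 0.255 TPM with a median of 0.199 in brachial libraries and from 0.359 to 0.765 TPM with a median of 0.592 in lumbar libraries. All 6 lumbar libraries were above all 6 brachial ones, and the mean was 2.96-fold higher (exact permutation test, two-sided, p = 0.00216, the smallest that 6 against 6 allows). Any gene without overlap has this p, so it only restates the separation. In the fit without a filter its log2 fold change was 1.19 (SE 0.21, adjusted p = 0.00646, limma). In that fit, which tests more genes, *Fgf9*, *Fgfrl1* and *Dusp6* were called as well, and *Spry1* and *Spry2* were not, at adjusted p of 0.0817 and 0.0794 (limma). These are low values, with a mean coverage of 0.376 to 2.48 reads per base.

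By class, the 7 feedback genes summed to 83.2 to 87.7 TPM in brachial and 69.2 to 75.4 TPM in lumbar libraries. These ranges did not overlap, and 3 of the 7 genes were called, all lower at the lumbar level, as were 9.62% of all genes. The 4 homologous factors summed to 48.7 to 60.3 and 39.7 to 51.3 TPM, with no gene called. The 4 receptors summed to 117 to 126 TPM in brachial and 119 to 140 TPM in lumbar libraries, with no gene called. *Fgfr3* had a log2 fold change of 0.03 with a 95% interval of −0.08 to 0.14, and *Fgfr1* one of 0.06 with an interval of −0.20 to 0.33. The remaining members *Spred1*, *Spred2*, *Spred3*, *Fgf12*, *Fgf14* and *Fgf18* had log2 fold changes between −0.30 and 0.07.

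**Figure D4:**
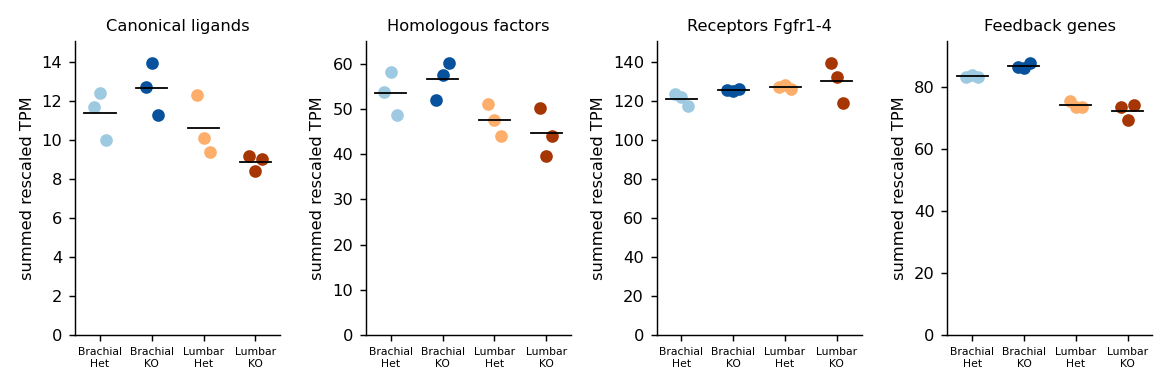
Summed rescaled TPM of the canonical ligands, the homologous factors, the receptors *Fgfr1* to *Fgfr4* and the feedback genes in each library (points), with the mean of each group (lines, n = 3) and axes that start at 0. Only the feedback genes have lumbar sums, 69.2 to 75.4 TPM, that lie wholly below the brachial sums, 83.2 to 87.7 TPM.

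Markers of some other cell types moved with the level as well. At an adjusted p under 0.05 (limma), 3 of 5 astroglial precursor markers tested, 4 of 6 endothelial, 4 of 6 microglial and 4 of 5 mesenchymal markers were lower in lumbar libraries, and of 9 ventral progenitor markers 5 were higher and 2 lower, beside 8.91% of all genes higher and 9.62% lower. In the same fit 0 of 6 blood, 0 of 7 dorsal cord, 0 of 8 floor plate and 0 of 5 sensory neuron markers tested were called, and 1 of 4 neural crest and Schwann markers was lower. The astroglial list shares *Fgfbp3* with the pathway genes called lower below, so these counts are not independent. Astroglial precursor markers summed to 304 to 357 TPM in brachial and 210 to 265 TPM in lumbar libraries. The endothelial markers summed to 65.1 to 89.1 and 54.3 to 67.0 TPM, the microglial markers to 18.0 to 28.9 and 8.52 to 17.3 TPM, and the mesenchymal markers to 67.3 to 92.8 and 46.3 to 68.0 TPM. The part of these cells in the differences of *Fgf9*, *Spry1*, *Spry2* and *Dusp6* was not tested.

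In KO against Het embryos, no member had both an unadjusted p under 0.05 and a log2 fold change above 0.5 or below −0.5 at either level. The study applied this size and p to genes lower in KO, and both directions were counted here (limma, 3 against 3). The count was 0 of 19 members tested at the brachial level, where 3.08% of 16768 genes passed (2.21% higher and 0.871% lower in KO), and 0 of 19 at the lumbar level, where 1.77% of 16620 genes passed (0.981% higher and 0.794% lower). At an adjusted p under 0.05, 0 members passed, beside 0.00596% of all genes in brachial and 0% in lumbar cords. At an unadjusted p under 0.05 alone, 2 members passed at the brachial level, where 13.9% of all genes did, and 0 at the lumbar level, where 4.86% did.

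**Figure D5:**
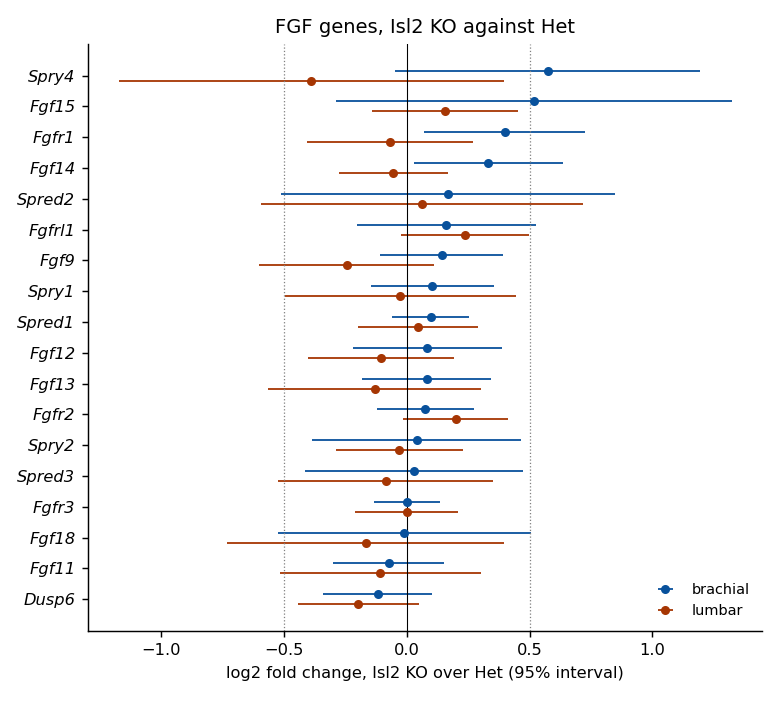
Log2 fold change of *Isl2* KO over Het for the 18 FGF genes tested at both levels, with 95% intervals (limma, 3 against 3 libraries at each level) and dotted lines at −0.5 and 0.5. No gene had both a log2 fold change beyond these lines and an unadjusted p under 0.05, and only the brachial intervals of *Fgfr1* and *Fgf14* lie apart from 0.

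At the brachial level *Fgfr1*, one of the broadly used receptors, was at 12.1, 12 and 9.15 TPM in Het and 13.2, 14.1 and 16.4 TPM in KO libraries. The groups did not overlap, and the log2 fold change was 0.40 (SE 0.14, unadjusted p = 0.0227, adjusted p = 0.357, limma). *Fgf14* was at 7.55, 7.91 and 7.72 TPM in Het and 8.38, 9.65 and 11.5 TPM in KO libraries, a log2 fold change of 0.33 (SE 0.13, unadjusted p = 0.0358, adjusted p = 0.357, limma). *Spry4* was at 0.793, 1.04 and 0.840 TPM in Het and 1.20, 1.16 and 1.82 TPM in KO libraries, a log2 fold change of 0.57 (SE 0.27, unadjusted p = 0.0656, limma). In all 3 genes the highest value came from KO replicate 3, the library of least depth and of the highest summed TPM of 6 blood markers, 5836 beside 1987 to 3442 in the other 5 brachial libraries. Without it the log2 fold changes were 0.31, 0.22 and 0.38. Over all brachial libraries the 6 blood markers were all above 0 in KO over Het, with a median of 0.49 and 0 called. The part of blood or depth was not tested.

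KO and Het libraries did not overlap for 5 members at the brachial level, *Fgf9*, *Fgf14*, *Fgfr1*, *Spry4* and *Spred1*, all higher in KO, while 20.1% of all genes had no overlap (9.67% higher and 10.4% lower in KO). *Fgf9* was at 7.28, 7.03 and 6.71 TPM in Het and 7.57, 8.39 and 7.30 TPM in KO libraries. *Spred1* was at 35.1, 35.0 and 33.0 TPM in Het and 36.4, 37.7 and 36.3 TPM in KO libraries. For each of the 5 genes the exact two-sided permutation p is 0.1, the smallest that 3 against 3 libraries can give. The median log2 fold change of the 19 members was 0.10, beside −0.01 over all genes tested. *Fgfr3* was the steadiest, at 88.8, 88.8 and 88.8 TPM in Het and 89.3, 88.6 and 88.8 TPM in KO libraries, with a log2 fold change of 0.00 (95% interval −0.13 to 0.14).

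At the lumbar level the members with the smallest p were *Fgfr2* and *Fgfrl1*. *Fgfr2* was at 20.2, 23.2 and 23.9 TPM in Het and 24.6, 25.3 and 27.2 TPM in KO libraries, the only member without overlap, while 9.94% of all genes had none. Its log2 fold change was 0.20 (SE 0.09, unadjusted p = 0.0624, limma). *Fgfrl1* was at 8.996, 9.98 and 8.38 TPM in Het and 11.4, 11.0 and 9.82 TPM in KO libraries, with overlap and a log2 fold change of 0.24 (SE 0.11, unadjusted p = 0.0703, limma). *Fgf9* was at 6.66, 5.44 and 5.02 TPM in Het and 5.38, 4.65 and 4.34 TPM in KO libraries, and *Fgf10* at 0.619, 0.745 and 0.565 TPM in Het and 0.765, 0.473 and 0.359 TPM in KO libraries, both with overlap. *Fgf10* had a log2 fold change of −0.28 (SE 0.35, unadjusted p = 0.456, limma). By in situ hybridization the study found *Fgf10* enriched in gluteus motor pools and reduced in KO. These pools are only a part of the tissue read here. *Dusp6* was at 15.7, 14.6 and 17.7 TPM in Het and 15.1, 13.7 and 13.0 TPM in KO libraries, also with overlap.

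The genotype effect itself did not differ detectably between levels for any member, with 0 of 18 at an adjusted p under 0.05, as for all 16698 genes (limma, interaction term). At an unadjusted p under 0.05 there were 2 members, *Fgf14* and *Spry4*, beside 4.42% of all genes. *Spry4* had a difference of −0.96 (SE 0.40, adjusted p = 0.812, limma), with a brachial log2 fold change of 0.57 and a lumbar one of −0.39. *Fgf14* had a difference of −0.39 (SE 0.15), *Fgfr1* of −0.47 (SE 0.21) and *Fgf9* of −0.39 (SE 0.18), with the same adjusted p of 0.812 (limma). The 95% interval for *Spry4* runs from −1.84 to −0.08.

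Of 57 other genes of the pathway, 53 were tested between levels and 14 were called, 5 higher and 9 lower at the lumbar level, which is 26.4% of them beside 18.5% of all genes (8.91% higher and 9.62% lower). The 5 higher genes were *Cnpy1*, a modulator of FGF receptors, with a log2 fold change of 1.68, *Gpc3* (0.48) and *Sdc1* (0.31), which encode heparan sulfate proteoglycans, *Dusp14* (0.47), a MAP kinase phosphatase, and *Ext1* (0.18), a heparan sulfate polymerase. The 5 lower genes of smallest p were the ETS factors *Etv4* (−1.60) and *Etv5* (−0.99), the sulfotransferase *Hs6st2* (−0.85), and the receptor partners *Flrt2* (−0.66) and *Flrt3* (−0.49). The other 4, named after their values were seen, were *Frs3*, *Fgfbp3*, *Mapk3* and *Ndst1*, with log2 fold changes between −0.39 and −0.23.

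*Cnpy1* ranged from 0.987 to 2.85 TPM with a median of 1.88 in brachial libraries and from 3.75 to 8.25 TPM with a median of 5.91 in lumbar libraries, without overlap. *Etv4* ranged from 20.5 to 30.1 TPM in brachial and from 4.74 to 15.5 TPM in lumbar libraries, and *Etv5* from 5.16 to 8.50 and from 2.13 to 4.26 TPM, both without overlap. Both ETS factors, like *Dusp6*, *Spry1* and *Spry2*, are known as targets of the Erk pathway in many tissues. *Etv1*, the related factor of the same subfamily, was not called.

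In KO against Het libraries at the brachial level, 4 of 54 pathway genes passed the same limits of size and p in the higher direction, beside 2.21% of all genes, and 0 in the lower direction, the one the study used, beside 0.871%. They were the kinase *Braf* (log2 fold change 0.53), the Ras inhibitor *Nf1* (0.69), the proteoglycan *Gpc4* (0.90) and the sulfotransferase *Hs6st3* (0.61), each with an adjusted p of 0.357 (limma). *Nf1* was at 24.6, 27.6 and 18.2 TPM in Het and 25.99, 36.8 and 54.9 TPM in KO libraries, so that replicate 3 was the highest here too. *Etv4* had the smallest p of the list and was lower in KO, at 30.1, 26.4 and 27.1 TPM in Het and 22.3, 20.5 and 20.5 TPM in KO libraries, without overlap. Its log2 fold change of −0.40 (SE 0.08, unadjusted p = 0.00173, adjusted p = 0.357, limma) was within the limit of 0.5, and was −0.22 with TPM as deposited. By RT-PCR and immunostaining, the study found *Etv4* lowered in KO at the lumbar but not at the brachial level. Without KO replicate 3, 1 call remained, *Hs6st3*, and without Het replicate 3 there were 0. Without KO replicate 2 there were 2 calls, and without KO replicate 1 there were 10, 9 of them higher and 1 lower.

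At the lumbar level 2 of 53 pathway genes passed, 1 higher and 1 lower, beside 0.981% and 0.794% of all genes. *Etv4* was lower here too, at 10.6, 8.75 and 15.5 TPM in Het and 4.74, 6.37 and 5.73 TPM in KO libraries. The study reports its loss from lumbar motor pools, and in older KO embryos it counted unchanged numbers of limb motor column neurons. The 10 motor neuron markers, *Isl2* among them, had log2 fold changes of KO over Het below 0 in 9 cases with a median of −0.28, 1 called lower and 4 without overlap, all lower in KO, and they summed to 276 to 359 TPM in lumbar Het and 217 to 296 TPM in lumbar KO libraries. In brachial libraries 4 of the 10 were below 0 with a median of 0.07, 1 was called lower, and 4 were separate and lower and 1 separate and higher. In lumbar KO over Het the 6 blood markers were all above 0 with a median of 0.48 and 1 called higher, and the 7 dorsal cord markers were all above 0 with a median of 0.29 and 0 called. Blood markers summed to 1994 to 3173 TPM in lumbar Het and 2611 to 4202 TPM in lumbar KO libraries, and dorsal cord markers to 34.8 to 59.8 and 39.97 to 91.4 TPM. The part of motor neurons, blood or dorsal tissue in the *Etv4* and *Cnpy1* values was not tested. *Cnpy1* was higher, at 3.75, 4.56 and 6.37 TPM in Het and 5.45, 8.25 and 7.69 TPM in KO libraries, with overlap and a log2 fold change of 0.55 (unadjusted p = 0.0442, adjusted p = 0.999, limma). Its call was lost without Lumbar Het replicate 1 or 2 and without Lumbar KO replicate 2 or 3, at log2 fold changes of 0.38, 0.51, 0.43 and 0.48. With quantile normalization, with coverage in place of TPM and by eBayes without trend the list had 0 genes called higher and 2 lower, *Cnpy1* not among them.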

How the data were processed

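Total RNA was sequenced from 12 ventral spinal cord libraries after ribosomal RNA depletion. The authors trimmed reads with Trimmomatic 0.38, and HISAT2 2.1.0, Bowtie2 2.3.4.1 and the mouse build mm10 are named in the submitters' processing notes. The deposited TPM and FPKM values were estimated per library by the authors with StringTie 2.1.3b. The deposited coverage is the mean read coverage per base from the same run, not scaled for depth. Since the tables hold no read counts, the count test of the study, DESeq2, was not repeated.

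Libraries were put on one scale by dividing TPM by size factors (median of ratios, 0.896 to 1.25), and log2(TPM + 0.1) was tested in R 4.3.3 by the linear models of limma 3.58.1, with a trended eBayes prior, over genes with a mean of at least 0.5 TPM in the libraries of the fit. Fold changes are on this scale, which understates those of low genes. Level was tested over all 12 libraries with genotype as a covariate, genotype within each level, and their interaction over all 12. P-values were adjusted over all genes tested by the Benjamini-Hochberg method. A level or interaction call needs an adjusted p under 0.05, and a genotype call an unadjusted p under 0.05 with a log2 fold change above 0.5 or below −0.5, the limits the study gives for genes lower in KO, used here in both directions. Single values were compared by exact permutation (scipy 1.17.1). FPKM and coverage served to gauge depth, given as aligned bases. The study gives 3 animals per group and describes read counts as those of individual animals. It does not say whether brachial and lumbar libraries share embryos. The p-values measure the spread between these libraries. The fit was also run on simulated data with known changes, which checks the calculation and not the results given here. Sequences were taken from RefSeq windows of GRCm38.p6.

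Members and gene lists were chosen with earlier results of these data known. All members are named, with values for those called or highest in their class, and, of the other pathway genes, up to 5 called genes of smallest p in each direction. Alternatives were other pseudocounts, filters and scalings, coverage, eBayes without trend, a replicate block, 1 genotype at a time, each library left out, and, added after seeing the data, embryo sex.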

Additional observations from a re-analysis of the deposited data

How the results depend on the processing

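Over 855 alternative values of 38 single-gene results, 855 kept their direction and 724 their side of the threshold. Most of these results were called or had a small p, so they were likely to keep their direction. Some members outside them did reverse without single libraries. *Fgfr1* between levels had log2 fold changes of −0.02 to 0.13, and *Spry2* by brachial genotype −0.10 to 0.25. Of the members, 5 differed between levels, against 3 (*Dusp6*, *Fgf9* and *Fgfrl1*) by eBayes without trend and 0 in Het libraries only or in KO libraries only, where fewer libraries were compared. With no filter on low values 4 members were called (*Dusp6*, *Fgf9*, *Fgfrl1* and *Fgf10*). With quantile normalization the count stayed at 5, with *Fgf11* and *Fgf13* in place of *Spry1* and *Spry2*. At the brachial level 0 members differed by genotype, against 3 with TPM as deposited, which raised the median of all genes by 0.17, 1 (*Spry4*) with coverage in place of TPM and 1 (*Spry4*) by eBayes without trend. Of the pathway genes, 14 differed between levels, against 3 in Het libraries only and 5 in KO libraries only. By genotype, brachial pathway calls went from 4 to 10 with TPM as deposited and 2 with coverage, and lumbar ones from 2 to 1 with a pseudocount of 1, with no filter or with all 12 libraries in one fit. *Cnpy1*, the lumbar gene called higher, was not called in 10 of its 18 alternatives, among them quantile normalization, coverage and eBayes without trend, where the total stayed at 2 through another gene called lower. Members without overlap went from 2 to 1 between levels and from 5 to 8 by brachial genotype with TPM as deposited, and from 1 to 2 by lumbar genotype with quantile normalization. The shares of all genes are not given for these settings, nor for the fits without single libraries below. The counts thus do not show whether members changed apart from other genes. The cause of these changes was not tested.

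With single libraries left out, member calls ranged from 3 (without Brachial Het replicate 2, Brachial KO replicate 2 or Lumbar Het replicate 3) to 8 (without Lumbar Het replicate 1) between levels and from 0 to 1 (*Fgf15*, without Brachial Het replicate 1) by brachial genotype. Pathway calls ranged from 9 to 17 between levels, from 0 to 10 by brachial and from 1 to 2 by lumbar genotype. Members without overlap ranged from 2 to 4 between levels, from 5 to 9 by brachial and from 1 to 6 by lumbar genotype.

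Same-numbered libraries did not deviate together, with correlations of −0.21 to 0.23 between genotypes and −0.21 to 0.34 between levels, so the numbers were not taken as pairs. With the replicate block, 4 members were called between levels (*Spry1* was not), 1 (*Fgf15*) by brachial and 0 by lumbar genotype, and pathway calls were 11, 2 and 2. With embryo sex as a term, chosen after seeing the data, 5 members were called between levels, with *Fgfr2* in place of *Spry2*. Among the 18 members tested between levels, the lowest coverage of a library was smallest for *Spred2* (0.767 reads per base), *Fgf13* (1.01) and *Spry4* (1.47), and it was between 0 and 0.902 for the 11 members below the filter.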

Other observations

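Some of the FGF genes are neighbours in the genome and differed widely in level. *Fgf3*, *Fgf4* and *Fgf15* lie in this order on chromosome 7, with gaps of 18.0 kb between *Fgf3* and *Fgf4* and 31.3 kb between *Fgf4* and *Fgf15*. *Fgf15* averaged 6.95 TPM over the 12 libraries and *Fgf3* 0.165 TPM, while *Fgf4*, between them, was listed at 0 in every library. *Fgf6* and *Fgf23*, 48.2 kb apart on chromosome 6, were listed at 0 in 12 and in 5 libraries.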
